A study of Gallus gallus with 4 samples.

Results

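The comparison described here sets the area vasculosa of chick embryos at stage HH12 of the Hamburger-Hamilton series against the same tissue at stage HH11. Globins and other blood genes such as SCL, LMO2 and GFI1B were already measured in HH10, were lowest in HH11 and were higher again in HH12. Of 17011 genes in the table, 11077 reached 1 FPKM (fragments scaled to transcript length and to library size) in at least 1 of these 2 libraries. Of those, 706 were at least 2-fold apart on the log2(FPKM + 1) scale, 520 of them (4.69% of the genes kept) higher and 186 (1.68%) lower in HH12. The groups were HH12 and HH11, with 1 library each, and libraries of HH10 and HH13 from the same series stand beside them where named. All 4 came from whole area vasculosa dissected from chick embryos, with no genotype, treatment or strain given in the labels. The sources used here do not give how many embryos went into a library. With 1 library per stage no difference has a replicate check, so differences are described by size and no p-value is given.

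The area vasculosa is the part of the extraembryonic yolk sac that surrounds the embryo. In its mesoderm, cells gather into blood islands, whose inner cells become primitive red cells and whose outer cells become endothelium. Below them lies the yolk sac endoderm, which takes up yolk by endocytosis and secretes lipoproteins, clotting factors and carrier proteins into the young circulation, much as liver does later. Birds keep the nucleus in their red cells and use nucleated thrombocytes where mammals use platelets.

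HH12 had higher values than HH11 in genes of the red cell, of haem and iron handling, of thrombocytes and endothelium, and in a large set of genes of the yolk sac endoderm. AQP1, SCL, VWF and the iron carrier gene TF each count in more than 1 of these groups. The lower genes were fewer. The glucose transporters SLC2A1 and SLC2A3, the lactate dehydrogenase gene LDHA, several secreted proteins and peptides, and GATA4 were among them. The 520 higher genes had a median of 11.5 FPKM in HH12, against 2.87 FPKM in HH11. The 186 lower genes had a median of 1.94 FPKM in HH12, against 9.30 FPKM in HH11. In whole tissue, a change in the number of cells of a type and a change in RNA per cell cannot be told apart.

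**Figure D1:**
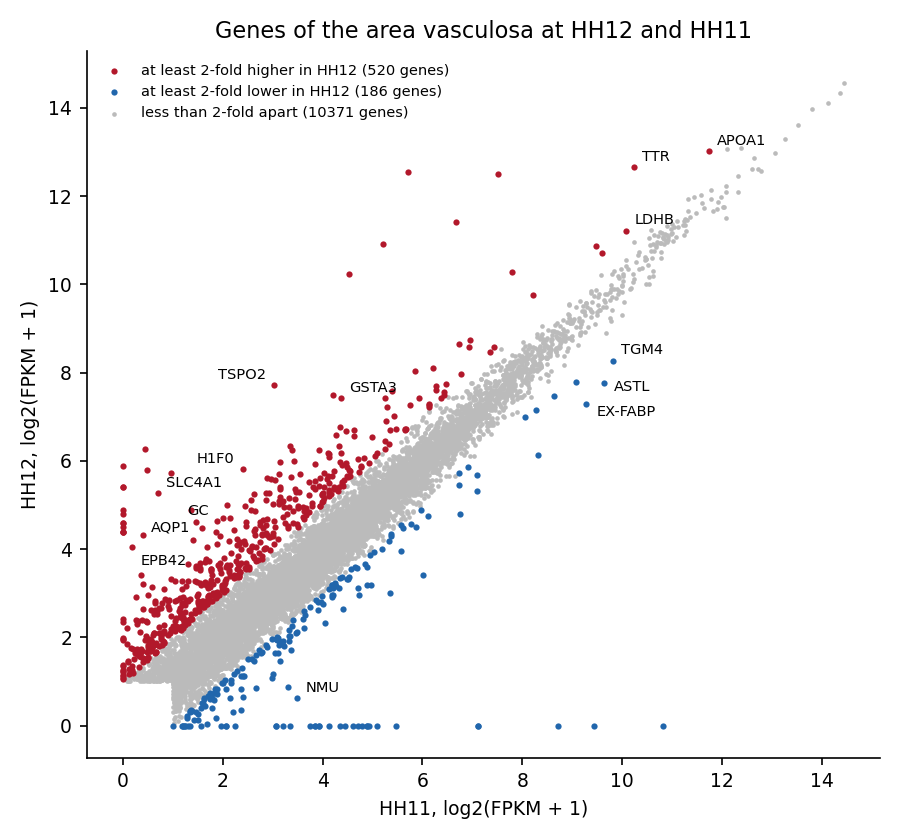
Each point is 1 of the 11077 genes kept, with log2(FPKM + 1) in HH11 on the horizontal axis and in HH12 on the vertical axis. The 520 higher genes lie above the band of the other genes and the 186 lower genes below it, and the points along 0 on the vertical axis are genes listed at 0 in HH12.

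Some facts of the libraries bear on all values. Total FPKM was 833686 in HH12 and 762831 in HH11, and the number of reads is unknown, because FPKM values keep no counts. Mitochondrial rows took 16.8% of the total in HH12 and 17.5% in HH11, and ribosomal RNA rows took 1.03% in HH12 and 0.574% in HH11. In HH10 and HH13 total FPKM was 952203 and 889136, of which ribosomal RNA rows took 6.55% and 1.49%. How far this bears on HH10 values set beside those of HH11 was not tested. The median log2 difference of all genes kept was -0.0047. With both libraries set to the same total FPKM that median moved to -0.12, and the split became 445 higher and 265 lower genes, so that 62.7% of the genes apart were higher, against 73.7% as deposited. Defining markers of blood summed to 11920 FPKM over 4 genes in HH12, against 263 FPKM in HH11. The globins HBAA and HBG1 made up most of the HH12 sum, with 5780 and 6027 FPKM. The other markers, SCL and LMO2, had 67.5 and 45.5 FPKM in HH12, against 16.6 and 13.4 FPKM in HH11. Those of yolk sac endoderm summed to 14936 FPKM over 3 genes in HH12, against 4630 FPKM in HH11. Endothelial markers (CDH5, KDR and TEK) summed to 21.7 FPKM in HH12 and 10.7 FPKM in HH11. The sum of the ectoderm markers hardly differed, at 4135 FPKM over 4 genes in HH12 and 4136 FPKM in HH11. KRT19 made up most of that sum, with 4039 FPKM in HH12 and 4053 FPKM in HH11. Of the markers of tissues outside the area vasculosa, all 4 somite genes were under 1 FPKM in both libraries, while cardiac markers summed to 18.4 FPKM in HH12 and 20.4 FPKM in HH11 and neural markers to 27.8 and 25.5 FPKM in HH12 and HH11. Single genes carried these sums. TUBB3 had 27.6 FPKM in HH12 and 23.4 FPKM in HH11, while SOX2 was listed at 0 in HH12, against 0.856 FPKM in HH11, and PAX-6 had 0.165 FPKM in HH12 and 1.19 FPKM in HH11. MYH7 had 13.9 FPKM in HH12 and 12 FPKM in HH11, while TNNT2 had 3.79 and 7.07 FPKM in HH12 and HH11, ACTC1 had 0.673 and 1.09 FPKM, and NKX2-5 was listed at 0 in HH12, against 0.246 FPKM in HH11. How far a different share of these cell types contributed to the differences was not tested.

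After the globins, red cell genes showed the greatest differences of all genes with a symbol that reached 5 FPKM. TSPO2, an erythroid relative of the mitochondrial translocator protein, had 54.7, 7.16, 210 and 298 FPKM in HH10, HH11, HH12 and HH13, a log2 difference between HH12 and HH11 of 4.69. SLC4A1, the anion exchanger band 3 that swaps bicarbonate for chloride across the red cell membrane, had 1.48, 0.633, 37.8 and 129 FPKM in the same order, a difference of 4.57. EPB42, the membrane protein that ties band 3 to the cytoskeleton, had 15.6 FPKM in HH12, against 0.145 FPKM in HH11. The anion exchanger and its partner were thus both under 1 FPKM in HH11. AQP1, through which water crosses red cell and vessel membranes, had 18.9 FPKM in HH12 and 0.323 FPKM in HH11, and reached 222 FPKM in HH13. CA13, a cytosolic carbonic anhydrase, had 61.6 FPKM in HH12 and 7.90 FPKM in HH11. CA2, the abundant carbonic anhydrase of red cells, followed another course over the stages, with 762, 122, 430 and 263 FPKM in HH10, HH11, HH12 and HH13. Its highest value was in HH10, whereas those of TSPO2, SLC4A1, EPB42, AQP1 and CA13 were in HH13.

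In the list of red cell membrane genes and enzymes, 13 of 31 genes kept (41.9%) were at least 2-fold higher and 1 (3.23%) lower. The median log2 difference was 0.70. Over all genes kept the shares were 4.69% higher and 1.68% lower, and the list shares below stand beside these. The other higher members included NT5C3A, a pyrimidine nucleotidase that clears RNA breakdown products in maturing red cells, with 154 FPKM in HH12 and 53.2 FPKM in HH11. BLVRA, biliverdin reductase, had 57.0 FPKM in HH12 and 21.5 FPKM in HH11, and AQP3, a water and glycerol channel, had 39.8 and 16.6 FPKM in HH12 and HH11. The one lower member was SLC2A1, a glucose transporter taken up again below. Members less than 2-fold apart included the membrane skeleton genes EPB41 (13.4 FPKM in HH12 and 14.3 FPKM in HH11) and SPTB (10.1 and 6.75 FPKM in HH12 and HH11), and BPGM, which makes a regulator of haemoglobin oxygen affinity (14.5 and 17.2 FPKM in HH12 and HH11). These skeleton genes were closer between the libraries than the transporters TSPO2, SLC4A1 and AQP1.

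Outside the lists, H1F0 had 55.4 FPKM in HH12 and 4.28 FPKM in HH11, a log2 difference of 3.42. It encodes a linker histone. MFSD2B, an exporter of sphingosine phosphate from red cells and platelets in mammals, had 23.5 FPKM in HH12 and 1.76 FPKM in HH11. The globin genes stood at the head of the higher genes, with all 6 genes kept at least 2-fold higher and a median log2 difference of 5.71. Globins took 0.171%, 0.0383%, 1.81% and 3.92% of the total FPKM in HH10, HH11, HH12 and HH13, so their share was lowest in HH11. HBZ, the embryonic alpha-type globin, had 52.2 FPKM in HH12 and 0.947 FPKM in HH11, and globin genes resemble one another, so the division of reads between them is uncertain.

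The haem and iron list had a smaller median difference than the red cell list, whose median was 0.70. Among 26 genes kept, 7 (26.9%) were higher and 0 lower, and the median was 0.41. Within the synthesis pathway the higher genes were enzymes of its middle steps. UROS, uroporphyrinogen synthase, had 21.5 FPKM in HH12 and 5.99 FPKM in HH11. CPOX, coproporphyrinogen oxidase, had 46.9 FPKM in HH12 and 16.1 FPKM in HH11, and UROD, uroporphyrinogen decarboxylase, had 104 and 49.8 FPKM in HH12 and HH11. FECH, ferrochelatase, which inserts the iron, had 104 FPKM in HH12 and 105 FPKM in HH11, and ALAS1, the housekeeping first enzyme, had 62.0 and 58.7 FPKM. The last enzyme of haem synthesis was hence level between the libraries while the middle enzymes differed.

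Several genes of iron uptake, transport and export were higher too. STEAP3, the endosomal ferrireductase of red cell precursors, had 4.73, 2.23, 15.6 and 35.5 FPKM in HH10, HH11, HH12 and HH13. SLC25A37, mitoferrin, which carries iron into mitochondria, had 9.90, 7.69, 33.1 and 98.0 FPKM. TF, transferrin or ovotransferrin, the iron carrier secreted by endoderm, had 864 FPKM in HH12 and 297 FPKM in HH11, and SLC40A1, the iron exporter ferroportin, had 41.2 and 15.4 FPKM in HH12 and HH11. The receptor for transferrin, TFRC, was less than 2-fold apart, with 98.8 FPKM in HH12 and 53.7 FPKM in HH11. So was ABCB10, a mitochondrial transporter that binds mitoferrin, with 46.6 and 22.9 FPKM in HH12 and HH11. FTH, a ferritin chain, had 2284 FPKM in HH12 and 2041 FPKM in HH11.

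Most regulators of blood were less than 2-fold apart, though the share of higher genes was above that of all genes kept. Among 26 blood transcription factors kept, 4 (15.4%) were higher, against 4.69% of all genes kept, and 0 were lower. The median was -0.04 and 12 members lay above 0. GFI1B, a zinc finger repressor of the erythroid and megakaryocyte lineages, had 15.4, 1.64, 17.4 and 29.5 FPKM in HH10, HH11, HH12 and HH13. TAL1, named SCL in the table, and its partner LMO2, which together build the core regulator of blood formation, were also higher. SCL had 64.5, 16.6, 67.5 and 105 FPKM, and LMO2 had 58.7, 13.4, 45.5 and 86.9 FPKM. All 3 had their lowest value in HH11, and for LMO2 the HH12 value lay below that of HH10. ERG, the 4th, had 2.54 FPKM in HH12 and 0.733 FPKM in HH11. GATA2, a factor of early blood progenitors, was at a similar level in both libraries, with 85.3 FPKM in HH12 and 102 FPKM in HH11. LDB1, the bridging protein of the TAL1 complex, had 42.5 FPKM in HH12 and 44.9 FPKM in HH11, and GATA1 was not analysed here.

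**Figure D2:**
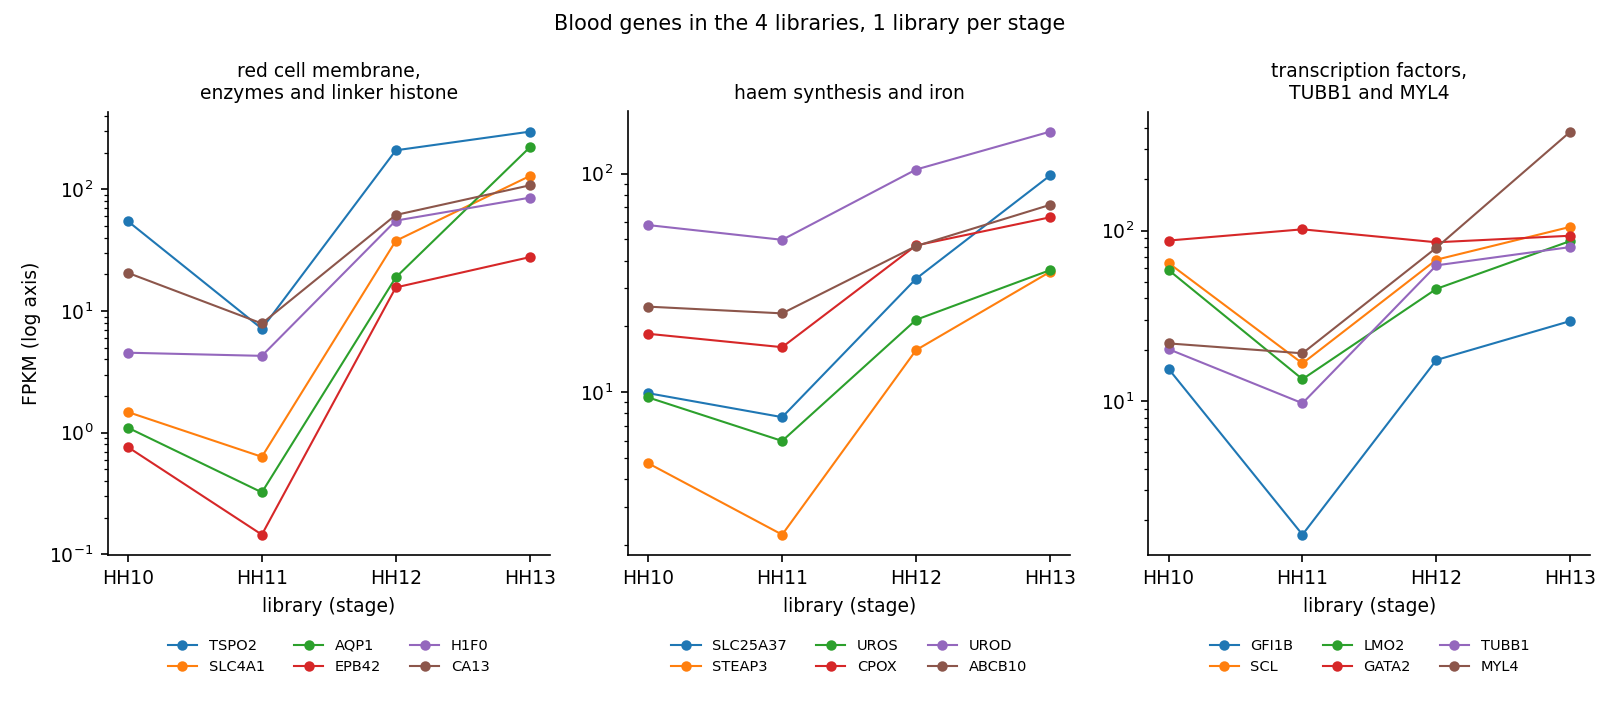
Lines join the FPKM of 1 gene (log axis) in the libraries of HH10, HH11, HH12 and HH13, with 1 library per stage and no error bars. TSPO2, GFI1B, SCL, LMO2 and TUBB1 have their lowest value in HH11 and are higher in HH12, while GATA2 runs level.

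Thrombocyte genes were higher in HH12 in 7 of 17 cases (41.2%) and lower in 0, with a median of 0.83. TUBB1, a tubulin of the marginal band, had 20.2, 9.70, 62.5 and 80.0 FPKM in HH10, HH11, HH12 and HH13. CD9, a tetraspanin, had 35.8 FPKM in HH12 and 16.5 FPKM in HH11. GFI1B, described above as a repressor of the erythroid lineage too, is also in this list. How far red cells rather than thrombocytes contributed to these values was not tested. The remaining higher members were at low level: PLEK, GP1BB, MMRN1 and VWF had between 1.45 and 5.02 FPKM in HH12 and between 0.0741 and 1.76 FPKM in HH11. ITGB3, the integrin beta chain of thrombocytes, had 28.6 FPKM in HH12 and 36.8 FPKM in HH11. Among 8 macrophage and leukocyte genes kept, 2 (25%) were higher and 2 (25%) lower. RAC2, a GTPase of blood cells, had 5.89 FPKM in HH12 and 1.85 FPKM in HH11, while LYZ and LYG2, which encode lysozymes, were at 0.325 and 0.315 FPKM in HH12, against 1.95 and 2.47 FPKM in HH11. Of the defining macrophage markers, CSF1R and PTPRC were under 1 FPKM in both libraries and SPI1 had 4.99 FPKM in HH12 and 2.52 FPKM in HH11.

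Among 39 endothelial genes, 10 (25.6%) were higher and 0 lower, and the median was 0.53. Of the higher members, AQP1, SCL, ERG and VWF also stand in the blood lists above and are counted there too. Apart from AQP1 and SCL the higher members were at 10.7 FPKM or less in HH12. RAMP2, the partner of the adrenomedullin receptor, had 4.42, 2.70, 8.94 and 36.1 FPKM in HH10, HH11, HH12 and HH13. PLVAP, of the diaphragms of vessel pores, had 10.7 FPKM in HH12 and 4.56 FPKM in HH11, and TFPI, an inhibitor of tissue factor, had 6.62 and 1.79 FPKM in HH12 and HH11. TEK, the angiopoietin receptor, had 4.14 FPKM in HH12 and 1.44 FPKM in HH11. The junction genes CDH5 and CLDN5 were higher by less than 2-fold, with 13.8 and 22.7 FPKM in HH12, against 7.25 and 14.6 FPKM in HH11. Other vessel receptors were less than 2-fold apart and lay on both sides. KDR, a VEGF receptor, had 3.74 FPKM in HH12 and 1.97 FPKM in HH11, and FLT1 had 2.68 and 1.24 FPKM in HH12 and HH11. FLT4 had 15.0 FPKM in HH12 and 21.5 FPKM in HH11, and APLNR had 26.3 and 38.4 FPKM in HH12 and HH11. Against HH10 in place of HH11 the median of the endothelial list was -0.13, so the direction of the list depended on which earlier library was used. The arterial, venous and Notch list held 1 higher gene, TEK, among 19 (5.26%), with a median of -0.24. The angiogenic ligands held 1 higher and 1 lower gene among 25 (4% each). The higher shares of both lists were near the 4.69% of all genes kept.

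Smooth muscle and mural genes were higher in 7 of 20 cases (35%) and lower in 0, with a median of 0.29. ACTG2, the gamma smooth muscle actin, had 83.9, 37.6, 119 and 398 FPKM in HH10, HH11, HH12 and HH13. TAGLN, transgelin, had 8.55 FPKM in HH12 and 2.15 FPKM in HH11, and LMOD1, an actin filament nucleator, had 5.05 and 1.18 FPKM in HH12 and HH11. DES, the muscle intermediate filament desmin, had 9.63 FPKM in HH12 and 3.67 FPKM in HH11. MYL4, the embryonic atrial myosin light chain, had 79.4 FPKM in HH12 and 19.0 FPKM in HH11, whereas MYL3, another cardiac light chain, had 17.2 and 39.0 FPKM in HH12 and HH11. The list of 15 cardiac genes therefore held members on both sides, 3 higher (20%) and 2 lower (13.3%). In the matrix list, 5 of 50 genes (10%) were higher and 2 (4%) lower, with a median of -0.22. The higher genes included some of loose connective tissue. COL3A1, the chain of type III collagen, had 30.8 FPKM in HH12 and 4.44 FPKM in HH11, and LUM, a proteoglycan of collagen fibrils, had 20.1 and 2.63 FPKM in HH12 and HH11. LAMA5, a laminin chain of basement membranes, was lower, with 28.7 FPKM in HH12 and 61.6 FPKM in HH11.

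The yolk sac endoderm supplied the list with the highest share of genes apart after the globins. Among 27 lipoproteins and carrier proteins, 18 (66.7%) were higher by the 2-fold measure and 1 (3.70%) was lower, and the median was 1.29. TTR, transthyretin, the carrier of thyroid hormone, had 3627, 1199, 6496 and 21632 FPKM in HH10, HH11, HH12 and HH13. APOB, the structural protein of the lipoproteins that endoderm assembles from yolk lipid, had 106, 19.3, 109 and 396 FPKM. MTTP, the transfer protein that loads lipid onto APOB, had 16.8 FPKM in HH12 and 4.12 FPKM in HH11, so the core protein and its loading factor were higher together. APOA1 had 8331 FPKM in HH12 and 3412 FPKM in HH11, and APOAIV had 79.9 and 9.18 FPKM in HH12 and HH11. GC, the vitamin D binding protein, had 23.8 FPKM in HH12 and 2.68 FPKM in HH11. RBP4, the retinol carrier, had 1863 FPKM in HH12 and 710 FPKM in HH11, and LCAT, which esterifies cholesterol on lipoproteins, had 30.2 and 9.08 FPKM. The HH10 values of all these genes lay between those of HH11 and HH12. In HH10, APOA1 had 7827 FPKM, APOAIV 45.4 FPKM, MTTP 10.5 FPKM, GC 18.7 FPKM, RBP4 1210 FPKM and LCAT 24.6 FPKM. Other higher members, among them APOA5, FABP2, ABCA1 and APOH, had lower values in HH12 than in HH10. The lower member, EX-FABP, is a secreted lipocalin and no lipoprotein component.

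Clotting factors and serpins followed, with 15 of 31 genes (48.4%) higher, 0 lower and a median of 0.86. SERPIND1, heparin cofactor II, a thrombin inhibitor, had 31.1, 9.43, 74.4 and 228 FPKM in HH10, HH11, HH12 and HH13. F2, prothrombin, had 17.1 FPKM in HH12 and 3.40 FPKM in HH11, and the inhibitor of plasmin, SERPINF2, had 33.4 and 6.35 FPKM in HH12 and HH11. The fibrinogen chains FGA and FGB had 38.0 and 207 FPKM in HH12, against 10.5 and 76.3 FPKM in HH11. The third chain, FGG, was higher by less than 2-fold, with 44.8 FPKM in HH12 and 24.4 FPKM in HH11. Some enzymes and some inhibitors of clotting were thus higher side by side. Of the 31 genes, 25 lay above 0. PROC, protein C, had 7.37 FPKM in HH12 and 9.33 FPKM in HH11 and did not share the direction. F8, SERPING1, SERPINH1, A2ML1 and C5 were also lower in HH12, by less than 2-fold.

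Uptake of yolk uses the receptors LRP2 (megalin) and CUBN (cubilin), the anchor AMN and the adaptor DAB2. AMN had 19.4, 3.40, 25 and 71.4 FPKM in HH10, HH11, HH12 and HH13. CUBN had 27.5 FPKM in HH12 and 12.3 FPKM in HH11, LRP2 had 46.3 and 20.6 FPKM, and DAB2 had 36.3 and 16.5 FPKM, each in HH12 and HH11. All 4 were at least 2-fold higher, but HH12 lay below HH10 for CUBN (43.8 FPKM) and LRP2 (61.4 FPKM). Over the whole list of uptake receptors and lysosome genes, 5 of 42 (11.9%) were higher and 0 lower. The 5th was PSAP, the precursor of lysosomal lipid-binding saposins, with 1668 FPKM in HH12 and 777 FPKM in HH11. Transcription factors of endoderm were mostly level, with 2 of 24 (8.33%) higher, 1 (4.17%) lower and a median of -0.03. CREB3L3, a factor of liver and gut that acts on lipoprotein genes in mammals, had 49.1 FPKM in HH12 and 17.2 FPKM in HH11. GATA4 had 37.9, 68.0, 25.9 and 5.34 FPKM in HH10, HH11, HH12 and HH13, a log2 difference of -1.36 between HH12 and HH11. Its relatives GATA5 and GATA6 had 32.0 and 78.2 FPKM in HH12, against 27.2 and 99.4 FPKM in HH11.

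The higher genes also included enzymes of metabolism that are known from liver and kidney. These groups were drawn up after the values were seen, so their counts are descriptions of genes partly picked for being higher. Along the kynurenine pathway, which breaks down tryptophan, 4 of 8 genes were higher, namely IDO2, KMO, KYNU and HAAO. IDO2, which opens the ring, had 48.4 FPKM in HH12 and 9.33 FPKM in HH11, and KMO, the hydroxylase, had 40.5 and 9.93 FPKM in HH12 and HH11. KYNU and HAAO had 5.30 and 6.10 FPKM in HH12, against 0.660 and 0.872 FPKM in HH11. Both genes of creatine synthesis were higher. GATM, which makes guanidinoacetate, had 37.6 FPKM in HH12 and 6.29 FPKM in HH11, and GAMT, which methylates it, had 37.5 and 6.62 FPKM in HH12 and HH11. In arginine metabolism, ASS1, argininosuccinate synthase, had 71.8 FPKM in HH12 and 16.3 FPKM in HH11, and OTC, ornithine transcarbamylase, had 6.50 and 0.200 FPKM in HH12 and HH11.

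Of 29 genes of the breakdown of other amino acids, 12 were higher and 0 lower. They included CDO1, which oxidises cysteine, with 16.1 FPKM in HH12 and 3.85 FPKM in HH11, and FAH, the last enzyme of tyrosine breakdown, with 30.5 and 12.8 FPKM in HH12 and HH11. Bile acid genes were higher in 4 of 12 cases, among them SLC27A5, a bile acid ligase, with 51.0 FPKM in HH12 and 10.8 FPKM in HH11. Among 24 genes of glutathione transfer and detoxification, 10 were higher and 0 lower. GSTA3, a glutathione transferase, had 69.6, 19.6, 171 and 228 FPKM in HH10, HH11, HH12 and HH13. SULT1B1, a sulphotransferase, had 25.2 FPKM in HH12 and 3 FPKM in HH11. The gene listed as RD had 59.8, 17.4, 180 and 842 FPKM in HH10, HH11, HH12 and HH13, and ISG12(2) had 47.8 FPKM in HH12 and 6.45 FPKM in HH11.

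Sugar metabolism held genes on both sides. FBP1, fructose bisphosphatase, a key enzyme of glucose synthesis, had 82.9, 14.3, 75 and 264 FPKM in HH10, HH11, HH12 and HH13. PEPCK, the enzyme that commits carbon to glucose synthesis, had 15.9 FPKM in HH12 and 5.04 FPKM in HH11. Members of the glucose transporter family differed, with SLC2A1 and SLC2A3 lower and others less than 2-fold apart. SLC2A1 had 235, 540, 221 and 93.6 FPKM in HH10, HH11, HH12 and HH13, and SLC2A3 had 114, 310, 141 and 26.5 FPKM. SLC2A2, a transporter of liver and gut, had 30.4 FPKM in HH12 and 17.4 FPKM in HH11, and SLC2A8 had 22.4 and 17.4 FPKM in HH12 and HH11. SLC16A3, an exporter of lactate, had 7.66 FPKM in HH12 and 17.5 FPKM in HH11. The lactate dehydrogenase genes were split. LDHA, whose protein favours lactate production, had 176 FPKM in HH12 and 398 FPKM in HH11, whereas LDHB, whose protein favours lactate use, had 2380 and 1081 FPKM in HH12 and HH11. Enzymes of the common glycolytic path between them were less than 2-fold apart, such as GAPDH (3925 FPKM in HH12 and 3507 FPKM in HH11) and PKM (1030 and 1491 FPKM in HH12 and HH11). Over the glycolysis and hypoxia list, 2 of 40 genes (5%) were higher and 5 (12.5%) lower, with a median of -0.17. LDHA and SLC2A3 had lower values in HH10 than in HH12.

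**Figure D3:**
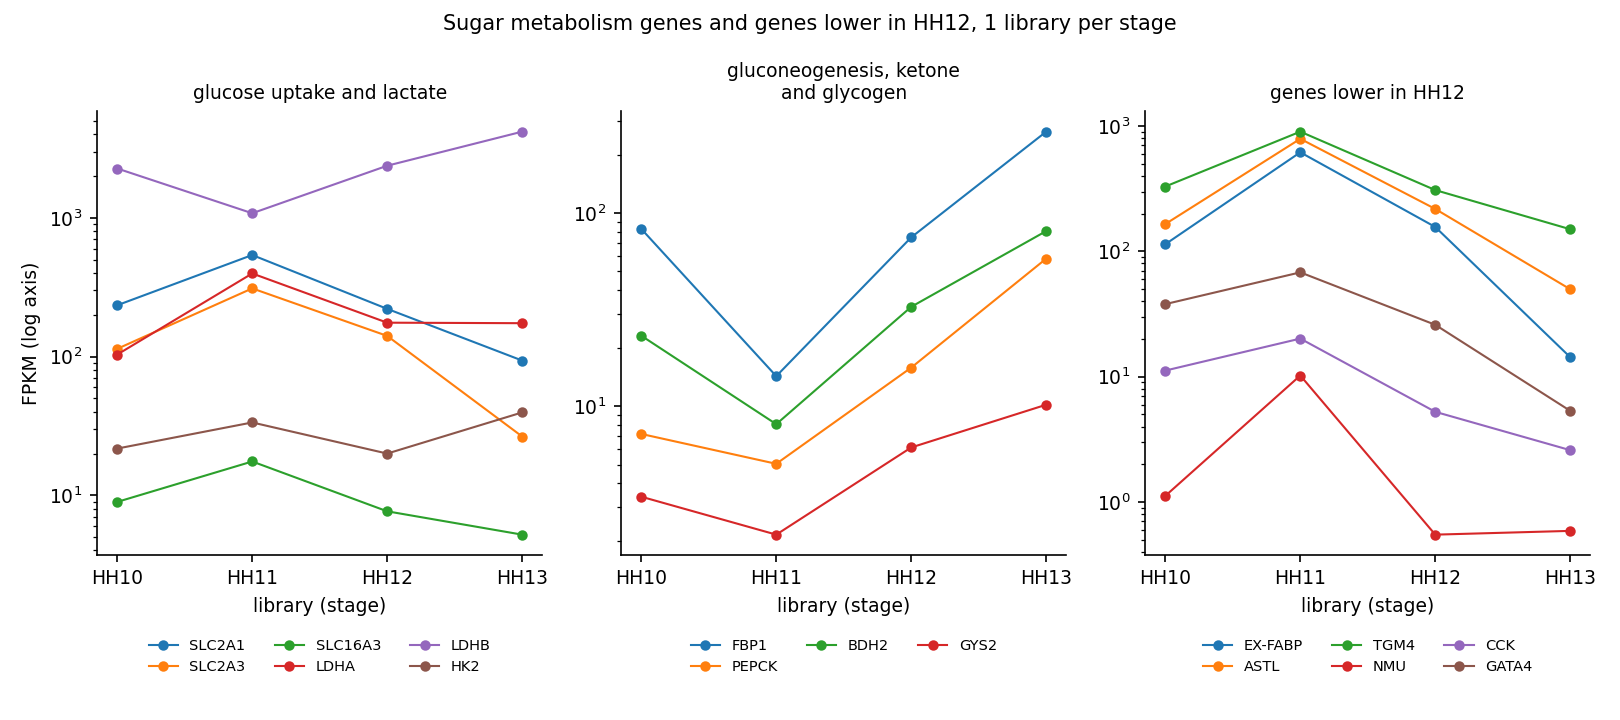
Lines join the FPKM of 1 gene (log axis) in the libraries of HH10, HH11, HH12 and HH13, with 1 library per stage. In the left and right panels SLC2A1, SLC2A3, SLC16A3, LDHA and all 6 genes of the right panel peak in HH11, and in the middle panel FBP1, PEPCK, BDH2 and GYS2 have their lowest value there.

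Solute carriers were split in the same manner, with 8 of 54 (14.8%) higher and 3 (5.56%) lower. SLC39A8, an importer of zinc and manganese, had 103 FPKM in HH12 and 23.9 FPKM in HH11, and SLC30A10, an exporter of manganese, had 45.3 and 12.2 FPKM in HH12 and HH11. SLC13A3, a carrier of dicarboxylates, had 17.7 FPKM in HH12 and 3.90 FPKM in HH11. The higher carriers thus moved metal ions, organic acids, phosphate (SLC34A1), ascorbate (SLC23A1) and amino acids (SLC3A1), and the 3 lower ones were SLC2A1, SLC2A3 and SLC16A3. In the list of matrix proteases and inhibitors, 4 of 35 genes (11.4%) were higher and 3 (8.57%) lower, with a median of -0.08. The higher ones included peptidases of the cell surface. ANPEP, aminopeptidase N, had 37.7 FPKM in HH12 and 15.1 FPKM in HH11, DPP4 had 45.3 and 20.1 FPKM, and ACE, the angiotensin converting enzyme, had 17.9 and 7.60 FPKM, each in HH12 and HH11. The precursor of angiotensin, AGT, had 10.9 FPKM in HH12 and 1.77 FPKM in HH11.

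Among the lower genes with a symbol, NMU showed the greatest difference of those with at least 5 FPKM. It encodes the peptide neuromedin U and had 1.12, 10.2, 0.550 and 0.589 FPKM in HH10, HH11, HH12 and HH13, a log2 difference of -2.86. CCK, the peptide cholecystokinin, had 5.25 FPKM in HH12 and 20.1 FPKM in HH11, and SST, somatostatin, had 0.289 and 4.13 FPKM in HH12 and HH11. Together with GRP these were 4 lower genes of 12 in a group of peptide hormone genes drawn up after the values were seen, in which AGT and GAL were higher. Some lower genes had high values in HH11. EX-FABP had 114, 617, 156 and 14.3 FPKM in HH10, HH11, HH12 and HH13. TGM4, a transglutaminase, had 329, 901, 308 and 150 FPKM, and ASTL, an astacin-like metalloprotease, had 165, 790, 218 and 49.8 FPKM. All 3 were highest in HH11 and lowest in HH13. VNN1, a pantetheinase, had 8.05 FPKM in HH12 and 28.5 FPKM in HH11, BLNK, an adaptor of B cell receptor signalling, had 7.66 and 25.1 FPKM, and CD320, the receptor for cobalamin-loaded transcobalamin, had 8.08 and 30.4 FPKM, each in HH12 and HH11.

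Apart from the retinoid list, signalling lists held few genes apart. Over all genes kept, 4.69% were higher and 1.68% lower. Of 40 genes of the BMP and TGF-beta pathway, 2 were lower and 0 higher, with a median of -0.21. SMAD9, a transducer of BMP signals, had 3.29 FPKM in HH12 and 10.1 FPKM in HH11, and FSTL3, an inhibitor of activins, had 2.77 and 8.99 FPKM in HH12 and HH11. The Wnt list held 2 higher and 2 lower genes of 55, with a median of -0.27. FRZB, a secreted Wnt inhibitor, had 23.1 FPKM in HH12 and 8.48 FPKM in HH11. PDGFB, a growth factor that attracts mural cells, had 6.72 FPKM in HH12 and 14.8 FPKM in HH11 and was the 1 lower gene among 36 FGF, IGF and receptor kinase ligands. The retinoid list held 5 higher (20.8%) and 2 lower (8.33%) genes of 24. The higher ones were TTR, RBP4, RBP5, CRABP2 and CYP26A1, and TTR and RBP4 also count among the lipoproteins and carrier proteins above. The chemokine and cytokine list held 2 higher (6.90%) and 1 lower (3.45%) of 29. Among the retinoid genes the enzymes that degrade retinoic acid were divided, with CYP26A1 at 5.81 FPKM in HH12 and 1.87 FPKM in HH11, and CYP26B1 at 6.02 and 14.1 FPKM in HH12 and HH11. Pluripotency and epiblast genes held 3 lower and 0 higher genes among 23, with a median of -0.31. The 3 were ASTL, SALL1 (2.77 FPKM in HH12 and 7.80 FPKM in HH11) and the protease gene HTRA1 (127 and 265 FPKM in HH12 and HH11). The factors NANOG and POUV were lower by less than 2-fold, with 124 and 473 FPKM in HH12, against 179 and 818 FPKM in HH11.

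Several large groups held no or hardly any gene apart. None of 59 cell cycle genes and none of 63 ribosomal protein genes was 2-fold apart, and 1 of 52 genes of oxidative phosphorylation was, NDUFB6. Above 0 lay 54 of the 63 ribosomal protein genes, with a median of 0.19, and 48 of the 52 oxidative phosphorylation genes, with a median of 0.27. At the same total FPKM these medians were 0.06 and 0.14. None of the 10 Hox genes kept was 2-fold apart. Ectoderm and epithelial genes held 2 higher genes of 50, KRT14 (28.8 FPKM in HH12 and 4.93 FPKM in HH11) and WNT6, and sterol and fatty acid synthesis held 3 of 42. The synthesis genes included the neighbouring desaturase genes FADS1 and FADS2, with 42.0 and 42.1 FPKM in HH12, against 14.2 and 20.4 FPKM in HH11. Shares close to the 4.69% and 1.68% of all genes kept are no feature of these lists.

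**Figure D4:**
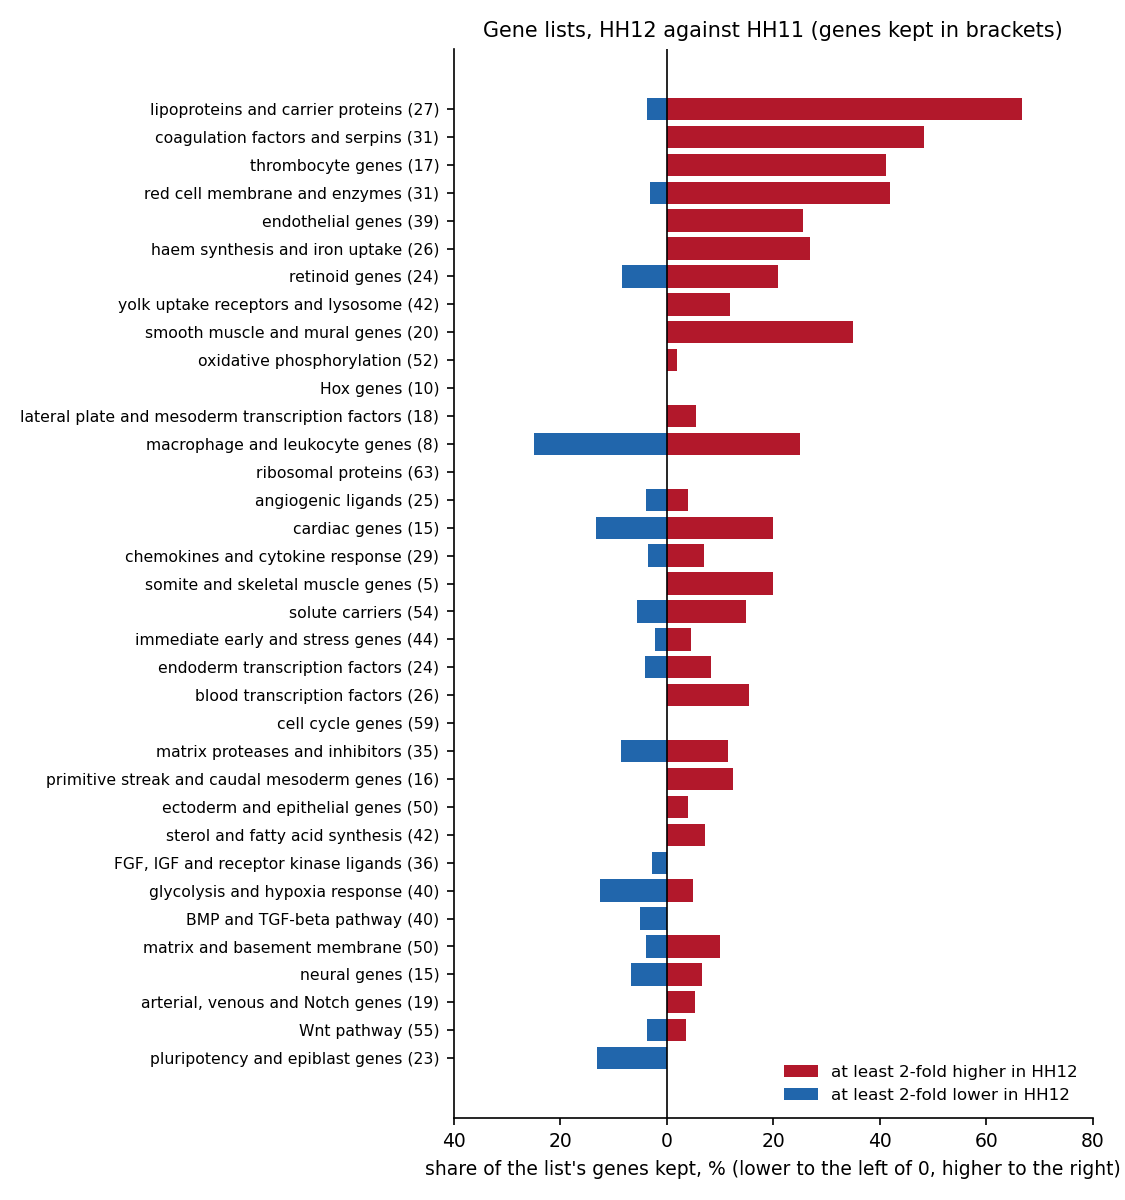
Bars give the share of the genes kept of each list (number in brackets) that were at least 2-fold higher in HH12 (red, to the right) or lower (blue, to the left), with lists in the order of their median log2 difference and the globins left out. Lipoproteins and carrier proteins have the longest bar to the right, 18 of 27 genes, and the pluripotency list, at the bottom, has 3 of 23 genes to the left and none to the right.

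The libraries of HH10 and HH13, which the choice of genes did not use, give a further pair of values for these genes. Of the 520 higher genes, 352 (67.7%) were at least 2-fold higher in HH13 than in HH10 and 13 (2.50%) lower, with a median log2 difference of 1.42. Among all 11077 genes kept the shares were 8.53% and 3.95%, with a median of -0.02. Without the globins the count was 346 of 514. Of the 186 lower genes, 56 (30.1%) were also lower by that measure in HH13 against HH10 and 6 (3.23%) were higher, with a median of -0.42. Medians of the higher genes over the series were 6.80, 2.87, 11.5 and 22.7 FPKM in HH10, HH11, HH12 and HH13, lowest in HH11. Medians of the lower genes were 4.64, 9.30, 1.94 and 2.52 FPKM, highest in HH11. Both sets were chosen by their HH11 and HH12 values, so HH11 as an extreme is in part built in. With HH10 in place of HH11 there were 300 genes higher and 306 lower in HH12. Among these were 141 of the 520 higher genes and 52 of the 186 lower genes.

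**Figure D5:**
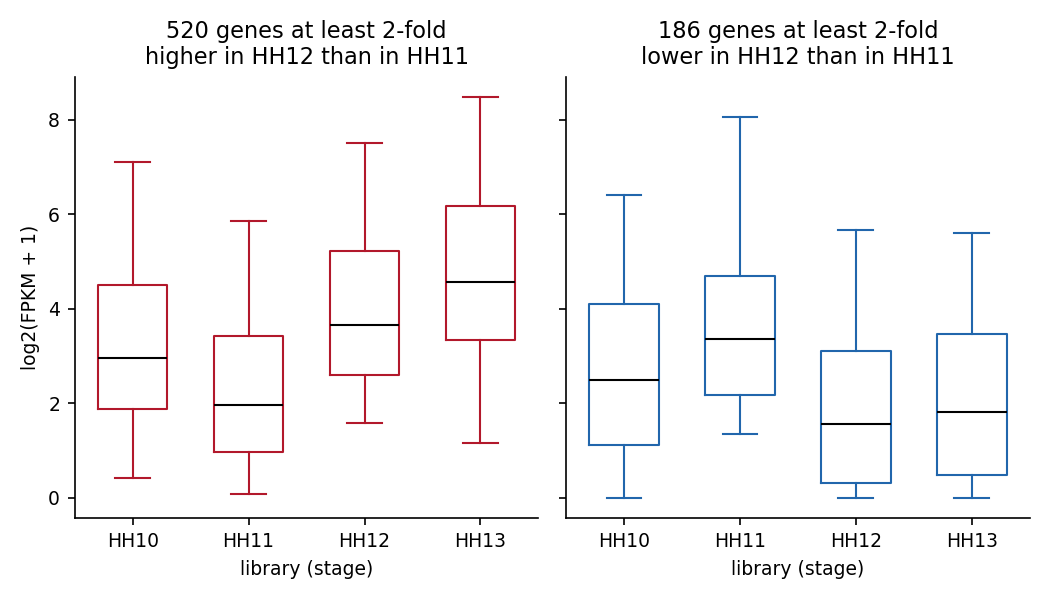
Boxes show log2(FPKM + 1) of the 520 higher genes (left) and the 186 lower genes (right) in each library, with the median as a black line, quartiles as the box and the 5th to 95th percentiles of genes as whiskers. The left medians are lowest in HH11 and highest in HH13, and the right medians are highest in HH11. Because the genes were chosen by their HH11 and HH12 values, the extremes in HH11 are in part built in.

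Not every gene apart was well measured. Of the 520 higher genes, 417 had a symbol, 133 were under 1 FPKM in HH11 and 25 were listed at 0 there, 18 of them without a symbol. Of the 186 lower genes, 104 had a symbol, 79 were under 1 FPKM in HH12 and 38 were listed at 0 there, 34 of them without a symbol. An exact 0 in such a table can be a failed estimate. On the lower side, the largest numerical differences belonged to such rows. ENSGALG00000025440, on chromosome 26 at 2220800 to 2220900 of build galGal4, had 1796 FPKM in HH11 and was listed at 0 in the other 3 libraries. ENSGALG00000025667, on chromosome Z, had 58.4 FPKM in HH12 and was listed at 0 in the other 3. At least 4-fold apart were 107 higher and 33 lower genes. The genes nearest to the threshold were ABAT, TMEM186 and PPP1R1C just inside at 1.00 and XPNPEP1, MYCBP and PTPRE just outside at 0.99, and on the lower side LGALS1, WNT2B and CNNM2 just inside and PTPN14, CYBA and UBXN10 just outside.

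Higher genes often lay next to each other. Of the neighbour places of higher genes (the next gene kept on either side within 50 kb), 13.8% held another higher gene, against 4.69% of all genes kept, which made 48 pairs. For lower genes the share was 5.13%, against 1.68%, with 5 pairs. Many of the pairs were genes of one family. On chromosome 24, APOA5, APOAIV and APOA1 lay between 5099632 and 5107725. On chromosome 4, FGB and FGA lay between 19781104 and 19800505, and on chromosome 5, SERPINA10, SERPINA4 and SERPINA1 lay between 44772723 and 44830801. Near-identical copies can share reads, which the authors' quantification could split between them, as in the glutathione transferase genes GSTA3 and GSTA on chromosome 3. Other pairs joined unrelated genes, such as LDHB and GYS2 on chromosome 1 or VWF and CD9 on the same chromosome. Of the 706 genes, 90 shared one of the authors' loci with another gene kept, as did 1005 of all 11077.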

How the data were processed

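RNA of the area vasculosa was sequenced with 1 library per stage. Per the submitters' processing notes, reads were handled with TopHat2 2.0.8, then Cufflinks and Cuffdiff, on build galGal4. The sources used here give no other version, annotation or library scaling. Values in the deposited table are FPKM, per the file headers, with no counts, so depth is unknown and no counting interval can be given. The authors' p-values and q-values in the deposited table, per the file headers, were not used.

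Of 17108 rows, 4505 without a symbol were kept under Ensembl identifiers. Rows of 1 symbol were summed (78 symbols), which left 17011 genes. Genes with at least 1 FPKM in HH12 or HH11 were kept, and differences were taken as log2((HH12 + 1)/(HH11 + 1)), which understates those of low genes. At least 2-fold counts as apart, and nothing was tested, since no stage had a replicate. Python 3.11.15, pandas 2.3.3, numpy 2.4.6 and matplotlib 3.10.9 were used, and the counting script was tested on simulated data. Deposited starts were printed 1 higher.

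The genes, the 36 lists and the rules were chosen with earlier results of these data known, and 8 further groups after the values were seen. Of the lists' 1603 genes, 1309 were found in the table, 51 through synonyms of the RefSeq table of assembly GRCg7b, and 1022 were kept. Other list genes were not analysed here. Named genes were the 20 largest differences each way with a symbol and at least 5 FPKM, globins left out, up to 6 each way of each list, and the 3 nearest the threshold on each side, 128 in all; 87 were higher, 35 lower and 6 within 2-fold. Others are examples chosen after their values were seen. The values of some genes that the rule takes or that stand in the lists are left out of the text. Sequences were not used here. Alternatives covered the pseudocount, the filter, 3 scalings, summing of rows, chromosomes and rows left out, a 4-fold size and the libraries of HH10 and HH13 in place of HH11 and HH12; the restrictions to genes with a symbol and to genes above 0 were added after the data were seen.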

Additional observations from a re-analysis of the deposited data

How the results depend on the processing

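No paired analysis was possible because each stage had 1 library, and for the same reason no library could be left out. The 520 higher and 186 lower genes stayed within 1.5 times those counts under every scaling, the other filters, the highest row per gene name and without ribosomal RNA and rows on unplaced scaffolds or sex chromosomes. With a pseudocount of 0.1 there were 765 higher and 368 lower genes. With a pseudocount of 5 there were 228 higher and 54 lower genes, of the higher 162 were also at least 2-fold higher in HH13 than in HH10, and 73 of 122 named genes remained 2-fold apart. At least 4-fold apart were 107 and 33 genes, and 57 of the higher were so in HH13 against HH10. Lower genes numbered 104 among genes with a symbol, and 101 among genes with at least 5 FPKM in a library, above 0 in both and no globin.

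With HH10 in place of HH11 there were 300 higher and 306 lower genes, of which 141 and 52 were also higher and lower against HH11. With that change 15 lists had more higher than lower genes, against 25, and 39 of the named genes were 2-fold apart in the same direction. The median of the endothelial list was then -0.13. Named lower genes that changed sign there were VNN1 (1.19), FSTL3 (0.96), LDHA (0.76), GRM7 (0.68), EX-FABP (0.45), ASTL (0.40), ADAM19 (0.33), BLNK (0.31), SLC2A3 (0.31), ASPHD2 (0.13), LASP-2 (0.095) and CSF3 (0.028). Named higher genes that changed sign were CUBN (-0.65), FADS2 (-0.64), LRP2 (-0.40), LMO2 (-0.36), CRABP2 (-0.36), PPP1R1C (-0.14), ARHGDIB (-0.11), SNAI2 (-0.024) and SESN2 (-0.013). With HH13 in place of HH12 there were 1543 higher and 634 lower genes, and CCL5 had -2.82. The cause of these changes was not tested. Depth is unknown, so how far low counts limit the low genes cannot be given.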

Other observations

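Some higher genes outside every list had a high level, several of them with a part in transport or secretion. They were chosen after their values were seen. SEPP1, selenoprotein P, which carries selenium in plasma, had 167, 37.1, 170 and 674 FPKM in HH10, HH11, HH12 and HH13. MFI2, melanotransferrin, an iron-binding membrane protein, had 128 FPKM in HH12 and 41.8 FPKM in HH11, and TCN2, transcobalamin, had 36.6 and 14.9 FPKM in HH12 and HH11. GJB1, a gap junction protein of liver cells, had 152 FPKM in HH12 and 69.2 FPKM in HH11. VIMENTIN had 86.7 FPKM in HH12 and 37.0 FPKM in HH11.

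Cytokine genes went both ways at low level. IL-1BETA had 3.48, 17.3, 6.76 and 0.244 FPKM in HH10, HH11, HH12 and HH13, and CSF3 had 2.15 FPKM in HH12 and 5.78 FPKM in HH11. CCL5, a chemokine, had 5.29, 6.08, 15.1 and 0 FPKM over the stages, so the gene was at least 2-fold higher in HH12 than in HH11 and listed at 0 in HH13. SERPINB2, an inhibitor of plasminogen activators, had its highest value in HH12, with 6.69, 16.6, 38.6 and 10.8 FPKM.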
